A study of Mus musculus with 2 samples.

Results

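Metallothioneins are small, cysteine-rich proteins that bind zinc and copper in the cell, and the genes examined here encode metallothioneins and the proteins that sense and move zinc. The 10 genes were Mt1, Mt2, Mt3, Mtf1, Slc30a1, Slc30a3, Slc30a10, Slc39a10, Slc39a12 and Slc39a14. They were found by symbol among 23746 gene records, 1 record each, and were chosen with the values of this comparison known, so their levels are a description.

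RNA sequencing compared 2 mouse medulloblastomas, tumours of the cerebellum driven by SmoM2, an activated form of the Hedgehog signal transducer Smoothened. The Brg1KO tumour formed in a CAG-CreER, Rosa26-SmoM2, Brg1F/F mouse, in which Cre can delete Smarca4, the gene of the chromatin remodelling ATPase Brg1. The WT tumour formed in a CAG-CreER, Rosa26-SmoM2, Brg1+/+ mouse. Both animals were injected with tamoxifen 10 times. The CAG promoter is broadly active, so recombination is not limited to tumour cells, and RNA came from dissected tissue that can hold other cells. The labels used here do not state the animals' ages.

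Zinc enters the cytosol through Slc39a (ZIP) transporters and leaves it, for the outside or for vesicles, through Slc30a (ZnT) transporters. Free zinc is sensed by the transcription factor encoded by Mtf1, which binds metal response elements and activates Mt1, Mt2 and Slc30a1. Zinc also represses Slc39a10 through Mtf1 in mice. Mt1 and Mt2 are also induced by glucocorticoids, by interleukin-6 signalling through STAT3 and by oxidative stress. In the brain they are mainly glial, and Mt3 is the brain-enriched form found in neurons and astrocytes.

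All values are FPKM, fragment counts divided by transcript length and by the mapped fragments of the library, as deposited. Each comes with the authors' lower and upper bound, but 51.2% of expressed records in Brg1KO and 49.0% in WT had an FPKM outside its own bounds, so the midpoint of the bounds is given as a second reading where it matters. There was 1 library per genotype, so no value carries a replicate error, and each difference is one between 2 tumours. Smarca4, the targeted gene, had 3.76 FPKM in Brg1KO and 14.0 FPKM in WT. Xist had 0.369 FPKM in Brg1KO and 268 FPKM in WT, and the Y-linked genes Ddx3y, Eif2s3y, Kdm5d and Uty had 7.16 to 63.4 FPKM in Brg1KO and 0 to 0.0264 FPKM in WT. Sex and genotype therefore cannot be told apart.

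Mt1, Mt2 and Mt3 lie on the plus strand of chromosome 8. The windows of 250 bases before their RefSeq starts (GRCm38.p6, the build called mm10) are shown because these genes were higher together, with that of Slc30a1, a zinc-responsive gene that was not. Capitals mark the core of the metal response element, TGCGCNC or TGCACNC, on either strand.
Mt1, chr8:94178839-94179088, plus strand: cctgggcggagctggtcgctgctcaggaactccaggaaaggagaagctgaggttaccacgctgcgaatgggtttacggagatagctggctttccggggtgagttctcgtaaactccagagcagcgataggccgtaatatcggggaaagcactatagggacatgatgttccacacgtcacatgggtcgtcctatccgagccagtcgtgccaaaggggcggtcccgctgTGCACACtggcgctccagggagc
Mt2, chr8:94172368-94172617, plus strand: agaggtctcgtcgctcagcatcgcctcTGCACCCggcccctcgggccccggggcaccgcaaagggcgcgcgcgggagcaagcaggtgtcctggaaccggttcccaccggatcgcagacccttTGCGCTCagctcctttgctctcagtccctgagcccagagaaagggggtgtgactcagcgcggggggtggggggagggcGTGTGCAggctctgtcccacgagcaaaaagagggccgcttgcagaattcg
Mt3, chr8:94152357-94152606, plus strand: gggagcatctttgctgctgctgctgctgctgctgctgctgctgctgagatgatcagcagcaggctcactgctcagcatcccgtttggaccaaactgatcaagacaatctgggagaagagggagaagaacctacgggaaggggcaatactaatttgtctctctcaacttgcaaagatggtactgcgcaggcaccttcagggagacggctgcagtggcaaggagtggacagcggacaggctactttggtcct
Slc30a1, chr1:191906531-191906780, plus strand: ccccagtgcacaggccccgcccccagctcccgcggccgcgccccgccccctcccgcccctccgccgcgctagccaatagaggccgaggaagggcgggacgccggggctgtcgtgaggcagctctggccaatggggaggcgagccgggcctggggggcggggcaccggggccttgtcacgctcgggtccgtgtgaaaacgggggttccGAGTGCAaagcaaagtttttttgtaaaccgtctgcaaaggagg

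The core was searched in whole RefSeq windows, which add the first 50 bases after the start. The Mt2 window held 4 cores, a number reached by 0.517% of 32851 windows of the same length. The Mt1 window held 3 cores, reached by 1.97% of windows, and 2 of these 3 lay just after the start, in the stretch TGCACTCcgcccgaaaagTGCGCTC (chr8:94179091-94179115). The Mt3 window held 1 core, after the start, and at least 1 core was present in 25.7% of all windows. The Slc30a1 window held 2 cores, reached by 7.11% of windows. That of Slc30a10, a gene that was not higher in Brg1KO, held 3, reached by 1.97% as for Mt1. Of these 3, 2 overlap on opposite strands. Of the 2 windows of Slc30a3, the one at the start of its record held 0 cores and the other, farther upstream, held 1. The windows of Slc39a10, Slc39a12 and Mtf1 held 0. RefSeq windows were found for 9 of the 10 genes. GENCODE M21 also lists transcripts of Mt1, Mt2 and Mt3 that start after the RefSeq start. They start 122 and 152 bases after it for Mt1, 46 and 242 for Mt2, and 139 for Mt3. The cores placed after the RefSeq starts of these 3 genes all lie before these later starts. Apart from the Mt2 start at 46, the bases just before those starts lie outside the window. Core counts for Mt1, Mt2 and Mt3 therefore hold for the RefSeq starts only, and which starts these tumours used was not tested. A match of letters does not show binding.

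The metallothionein genes were the most abundant of the 10 genes and had much higher levels in the Brg1KO tumour. Mt2 (chromosome 8, 94172618 to 94173567) had 4318 FPKM in Brg1KO and 252 FPKM in WT, a 17.1-fold difference and a log2 ratio of 4.09. The deposited bounds were 1572 to 1617 FPKM in Brg1KO and 64.0 to 74.4 FPKM in WT, which do not overlap and have midpoints 23.0-fold apart. Among all records, Mt2 ranked 2 by FPKM in Brg1KO and 212 in WT. A log2 ratio this high or higher was found in 67 of 13279 expressed records (0.505%).

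Mt1 (chromosome 8, 94179089 to 94180327), which encodes the other widely expressed isoform, had 3028 FPKM in Brg1KO and 244 FPKM in WT, a 12.4-fold difference and a log2 ratio of 3.63. Its bounds were 1563 to 1609 FPKM in Brg1KO and 84.3 to 95.4 FPKM in WT, with midpoints 17.7-fold apart. Mt1 ranked 3 in Brg1KO and 221 in WT, so Mt1 and Mt2 stood close together in both libraries.

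Mt3 (chromosome 8, 94152607 to 94154148) differed less, with 454 FPKM in Brg1KO and 136 FPKM in WT, a 3.34-fold difference and a log2 ratio of 1.73. Its bounds were 405 to 426 FPKM in Brg1KO and 107 to 119 FPKM in WT. Mt3 took 5.82% of the summed FPKM of the 3 genes in Brg1KO and 21.5% in WT. From the bound midpoints these shares were 11.6% in Brg1KO and 41.5% in WT, so the makeup of the metallothionein pool differed on both readings. These shares are taken within a library and do not depend on how the libraries were scaled to each other.

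Together Mt1, Mt2 and Mt3 summed to 7799 FPKM in Brg1KO and 633 FPKM in WT. This was 2.27% of all FPKM in Brg1KO and 0.163% in WT. The level of Mt1 was 0.701 of that of Mt2 in Brg1KO and 0.968 in WT on the FPKM scale, but 0.995 in Brg1KO and 1.30 in WT from the midpoints. FPKM of Mt1 stood well above its bounds, at 1.91 times the bound midpoint in Brg1KO and 2.72 times in WT. So did that of Mt2, at 2.71 times in Brg1KO and 3.65 times in WT. Mt3 stood closer to its bounds, at 1.09 times the midpoint in Brg1KO and 1.21 times in WT. The order of the 3 genes in WT therefore depends on the reading: Mt2 was highest by FPKM, and Mt3 was highest by the bounds.

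**Figure D1:**
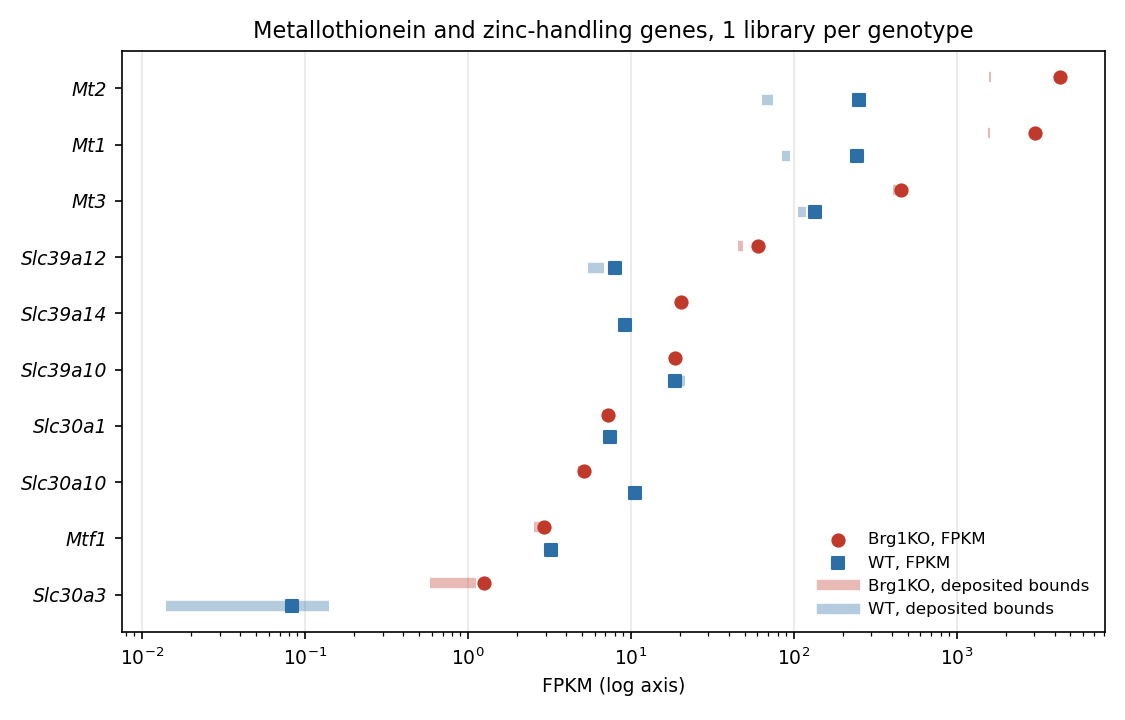
FPKM of the 10 genes on a log axis, with circles for the Brg1KO library and squares for the WT library; pale bars span the deposited bounds. Mt2, Mt1 and Mt3 are the most abundant genes in both libraries, and for Mt1 and Mt2 the values lie to the right of their own bounds.

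Mt4, the fourth gene of the cluster, which is known from stratified epithelia, stayed under 1 FPKM with 0.207 FPKM in Brg1KO and a listed 0 in WT. The records of Mt2 and Mt1 are 5521 bases apart, and Mt3 and Mt2 are 18469 bases apart. Outside the metallothioneins, 8 expressed genes lay within 300 kb of the cluster. None of them (0 of 8) was at least 2-fold higher, and 1 was at least 2-fold lower. Over all expressed records these shares were 16.1% and 8.67%, so nothing is read from the counts. The lower gene was Nudt21, a pre-mRNA cleavage factor gene with 30.9 FPKM in Brg1KO and 71.4 FPKM in WT. The nearest expressed gene on the Mt1 side, Nup93, which encodes a nuclear pore protein, had 14.6 FPKM in Brg1KO and 21.7 FPKM in WT. On the Mt4 side, the ciliary gene Bbs2 had 9.48 FPKM in Brg1KO and 6.37 FPKM in WT.

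**Figure D2:**
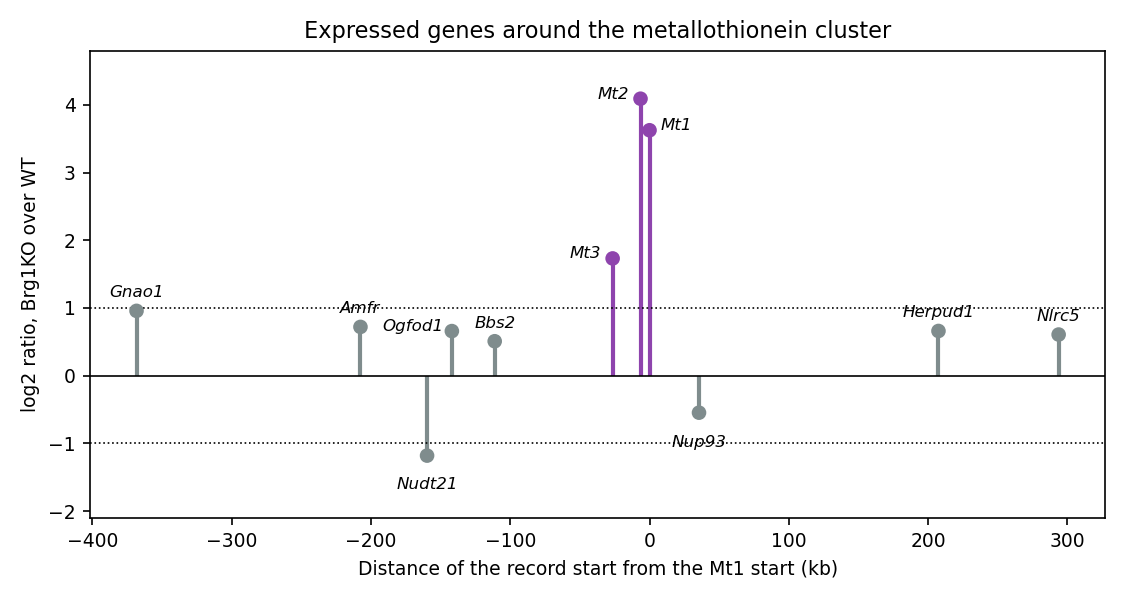
Log2 ratio (Brg1KO over WT) of the expressed genes around the metallothionein cluster against the distance of the record start from the Mt1 start, in kb; dotted lines mark 2-fold. Mt1, Mt2 and Mt3 stand at 3.63, 4.09 and 1.73, and the 8 other genes lie between -1.18 and 0.96.

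The zinc sensor gene and the transporter genes tied to it in mice had nearly equal levels in the 2 tumours. Mtf1 had 2.94 FPKM in Brg1KO and 3.25 FPKM in WT, with overlapping bounds of 2.56 to 3.06 FPKM in Brg1KO and 2.96 to 3.50 FPKM in WT. Slc30a1, the exporter of the plasma membrane, had 7.23 FPKM in Brg1KO and 7.48 FPKM in WT, with overlapping bounds of 6.73 to 7.72 FPKM in Brg1KO and 6.93 to 8.04 FPKM in WT. Slc39a10, an importer of the plasma membrane, had 18.7 FPKM in Brg1KO and 18.8 FPKM in WT. Its bounds, 17.6 to 19.1 FPKM in Brg1KO and 19.6 to 21.5 FPKM in WT, did not overlap although the FPKM values were nearly the same.

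The log2 ratios of Mtf1, Slc30a1 and Slc39a10 were -0.11, -0.04 and -0.01, and turned to 0.03, 0.11 and 0.16 once both libraries were given an equal FPKM sum. No direction is given for these 3 genes. The level of Mt1 was 419 times that of Slc30a1 in Brg1KO and 32.7 times in WT by FPKM, and 219 times in Brg1KO and 12.004 times in WT from the bound midpoints. These ratios are taken within each library.

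Slc39a12, a zinc importer gene expressed mainly in the brain, had the largest log2 ratio among the 6 transporters with 1 FPKM added, while Slc30a3, at far lower levels, had a larger ratio of plain FPKM. Slc39a12 had 60.3 FPKM in Brg1KO and 8.05 FPKM in WT, a 7.49-fold difference and a log2 ratio of 2.76. The bounds were 45.3 to 48.8 FPKM in Brg1KO and 5.47 to 6.81 FPKM in WT and did not overlap. Its level was 3.23 times that of Slc39a10 in Brg1KO and 0.428 times in WT. By FPKM it was the most abundant of the 6 transporters in Brg1KO and ranked below Slc39a10, Slc30a10 and Slc39a14 in WT.

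Slc39a14, an importer of zinc and manganese, and Slc30a10, a member of the zinc exporter family known mainly as a manganese exporter, stood on opposite sides. Slc39a14, which interleukin-6 induces in mouse liver, had 20.3 FPKM in Brg1KO and 9.28 FPKM in WT (log2 ratio 1.05, or 0.96 after centring on the median). Slc30a10 had 5.14 FPKM in Brg1KO and 10.6 FPKM in WT (log2 ratio -0.92), which is below 2-fold under the main rule and past it with 0.1 FPKM added (-1.03) or after centring on the median (-1.01). The bounds did not overlap between the libraries for either gene, at 19.4 to 21.2 FPKM in Brg1KO and 8.66 to 9.89 FPKM in WT for Slc39a14, and 4.76 to 5.51 FPKM in Brg1KO and 10.0 to 11.3 FPKM in WT for Slc30a10.

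Slc30a3 loads zinc into synaptic vesicles of glutamatergic neurons. It was the least abundant of the 10 genes, with 1.26 FPKM in Brg1KO and 0.0838 FPKM in WT, and it passed the filter on low values only through Brg1KO. Its bounds stood at 51 and 98 whole steps in Brg1KO and at 1 and 10 whole steps in WT, so the WT value rests on very few fragments if a step is 1 fragment. The plain FPKM ratio was 15.0. The log2 ratio was 1.06 with 1 FPKM added, 1.59 with 0.5 FPKM and 2.89 with 0.1 FPKM, and 0.78 from the bound midpoints, which is below 2-fold.

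Of the 10 genes, all of which reached 1 FPKM in at least 1 library, 6 were higher in Brg1KO by 2-fold or more and 0 were lower by 2-fold or more. Over all expressed records the 2-fold rule called 16.1% higher and 8.67% lower. Since the genes were chosen on this comparison, nothing is read from this difference in shares. The median log2 ratio was 1.05 for the 10 genes and 0.09 for all expressed records, which became 0.24 with an equal FPKM sum.

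The Mt, Slc30a and Slc39a families hold 28 genes, of which 24 were expressed, and the 2-fold rule called 6 of these higher and 1 lower. The 15 expressed genes outside the 10 had a median log2 ratio of 0.02, with 0 at least 2-fold higher. They are what was left after the 10 were chosen with these values known, so nothing is read from this contrast. The 1 lower gene was the importer Slc39a6, with 12.3 FPKM in Brg1KO and 27.3 FPKM in WT (log2 ratio -1.09, or -0.93 with the same FPKM sum). Among the exporters, the mitochondrial Slc30a9 had 49.5 FPKM in Brg1KO and 33.0 FPKM in WT, and the vesicular Slc30a4 had 19.6 FPKM in Brg1KO and 11.5 FPKM in WT. Slc30a5, Slc30a6 and Slc30a7, which supply zinc to the secretory pathway, had log2 ratios of -0.19, -0.25 and -0.09.

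Among the importers, the Golgi transporter gene Slc39a13 had 9.54 FPKM in Brg1KO and 5.36 FPKM in WT (log2 ratio 0.73). Slc39a4, the importer of intestinal zinc uptake, had 2.38 FPKM in Brg1KO and 1.11 FPKM in WT (0.68, or 1.04 with 0.1 FPKM added). Slc39a7, which releases zinc from the endoplasmic reticulum, had 29.8 FPKM in Brg1KO and 29.3 FPKM in WT. Slc39a1, Slc39a2, Slc39a3, Slc39a8, Slc39a9 and Slc39a11 had log2 ratios between -0.31 and 0.18. Slc30a2, Slc30a8 and Slc39a5 stayed under 1 FPKM in both libraries, like Mt4.

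**Figure D3:**
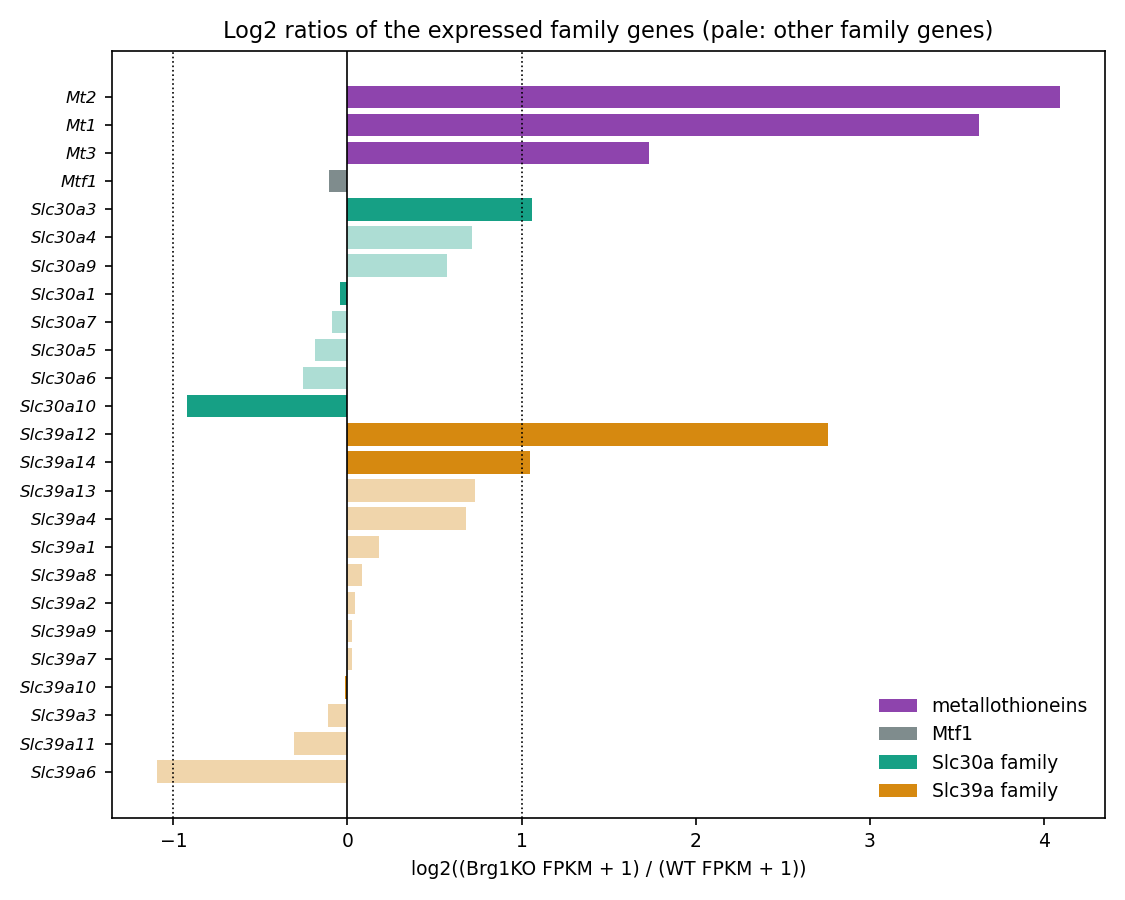
Log2 ratio (Brg1KO over WT, with 1 FPKM added) of the expressed metallothionein, Mtf1, Slc30a and Slc39a genes; saturated bars are the 10 genes, pale bars the other family genes, and dotted lines mark 2-fold. Outside the 10 genes, which were chosen with these values known, only Slc39a6, at -1.09 (-0.93 with an equal FPKM sum), passes 2-fold.

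Cell type markers also differed between the tumours, and were read from lists. For comparison, the 2-fold rule called 16.1% of all expressed records higher and 8.67% lower. In bulk RNA, more cells of a type and more RNA per cell cannot be told apart. Among 12 markers of astrocytes and Bergmann glia, the 2-fold rule called 10 higher and 0 lower, and none (0) was listed at 0. Their FPKM summed to 2777 in Brg1KO and 600.3 in WT, a 4.63-fold difference. The gap junction gene Gjb6 had 76.1 FPKM in Brg1KO and 4.75 FPKM in WT, and Sox9, a glial transcription factor gene, had 4.74 FPKM in Brg1KO and 10.1 FPKM in WT.

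Set against this astrocyte sum within each library, Mt1 stood at 1.09 in Brg1KO and 0.407 in WT, and Mt2 at 1.55 in Brg1KO and 0.420 in WT. Mt3 stood at 0.163 in Brg1KO and 0.226 in WT, Slc39a12 at 0.0217 in Brg1KO and 0.0134 in WT, and Slc39a14 at 0.00730 in Brg1KO and 0.0155 in WT. The sum rests largely on Aldoc, a glycolytic enzyme gene (912 FPKM in Brg1KO, 64.6 FPKM in WT), and Gfap, an intermediate filament gene (629 FPKM in Brg1KO, 83.5 FPKM in WT). It differed 3.48-fold without Aldoc and 2.73-fold without Aldoc and Gfap, readings chosen after the data were seen. By FPKM, Mt1, Mt2 and Slc39a12 differed more than all 3 sums and Slc39a14 less than all 3. Mt3, at 3.34-fold, lay below the first 2 and above the last. From its bound midpoints Mt3 differed 3.68-fold, above the sum without Aldoc, but the sums were taken from FPKM only. Single markers reached log2 ratios of 3.80 (Aldoc) and 3.74 (Gjb6). These were above that of Mt1 by FPKM (3.63) but below that from its bound midpoints (4.13). The FPKM of Aldoc and Gjb6 lay inside their bounds in both libraries. Gja1 and Gfap, both at 2.90, stood above Slc39a12. The part of astrocytes in these differences was not tested.

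Granule neuron markers were at least 2-fold higher in 9 of 10 cases and summed to 1011 FPKM in Brg1KO and 188 FPKM in WT. Slc17a7, the vesicular glutamate transporter gene, had 43.8 FPKM in Brg1KO and 1.45 FPKM in WT. The largest differences in marker sums, all higher in Brg1KO, were 53.0-fold for Purkinje cells, 11.3-fold for oligodendrocytes and 8.34-fold for interneurons. The sum for choroid plexus and ependyma differed 1.05-fold. Markers of microglia and macrophages were at least 2-fold higher in 7 of 8 cases (225 FPKM in Brg1KO, 87.2 FPKM in WT). Those of endothelium were so in 3 of 7 cases (144 FPKM in Brg1KO, 41.6 FPKM in WT). Those of pericytes, fibroblasts and meninges were so in 4 of 8 cases (136 FPKM in Brg1KO, 39.2 FPKM in WT). No marker of these lists was listed at 0 (0 in each library). Markers of granule precursors and tumour cells were at least 2-fold lower in 6 of 8 cases, summing to 214 FPKM in Brg1KO and 597 FPKM in WT, and Atoh1, which defines granule precursors, had 10.4 FPKM in Brg1KO and 67.0 FPKM in WT. The part of these cell types in the values of the 10 genes was not tested.

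Genes tied to the known inducers of metallothioneins were read from lists beside the 10 genes. Their counts stand beside 16.1% called higher and 8.67% called lower over all expressed records. The lists hold response genes and also parts of the pathways, so their counts do not measure a response alone. Such parts are Il6ra, Il6st, Osmr and Stat3, all called higher, and Nr3c1, Hsd11b2, Nfe2l2 and Keap1. Among 12 acute phase and STAT3 response genes, the 2-fold rule called 9 higher and 0 lower (median log2 ratio 1.55). Stat3 itself had 24.0 FPKM in Brg1KO and 10.3 FPKM in WT. Serpina3n, a protease inhibitor of reactive astrocytes, had 180.3 FPKM in Brg1KO and 9.69 FPKM in WT, and Lcn2, an acute phase lipocalin, had 651 FPKM in Brg1KO and 126 FPKM in WT. Timp1 (53.5 FPKM in Brg1KO, 12.3 FPKM in WT) and Cd14 (11.4 FPKM in Brg1KO, 2.24 FPKM in WT) were also higher. The STAT3 feedback inhibitor gene Socs3 had 9.87 FPKM in Brg1KO and 12.1 FPKM in WT.

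In the glucocorticoid response list of 12 genes, 6 passed 2-fold upwards and 2 downwards (median 1.05). Tsc22d3, a direct target of the receptor, had 118 FPKM in Brg1KO and 16.9 FPKM in WT, and the kinase gene Sgk1 had 58.6 FPKM in Brg1KO and 9.27 FPKM in WT. Fkbp5, another target, had 12.6 FPKM in Brg1KO and 9.36 FPKM in WT, and the receptor gene Nr3c1 had 13.5 FPKM in Brg1KO and 12.2 FPKM in WT. The genes called lower were Hsd11b2 and Per1. Hsd11b2, whose enzyme inactivates glucocorticoids, had 2.89 FPKM in Brg1KO and 233 FPKM in WT. Per1 was listed at 0 with status FAIL in Brg1KO and had 2.99 FPKM in WT. Its call is not read as a decrease, although Per1 counts in the median.

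Of 10 oxidative stress genes of the Nrf2 response, 3 passed 2-fold upwards and 0 downwards (median 0.45). These were Nqo1 with 7.92 FPKM in Brg1KO and 1.16 FPKM in WT, Srxn1 with 21.0 FPKM in Brg1KO and 7.05 FPKM in WT, and Hmox1 with 21.8 FPKM in Brg1KO and 8.35 FPKM in WT. Txnrd1, which encodes thioredoxin reductase, had 30.8 FPKM in Brg1KO and 56.0 FPKM in WT. Astrocyte markers (median 1.78) and microglia markers (median 1.33) were higher in the same library, and their part in these lists was not tested.

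**Figure D4:**
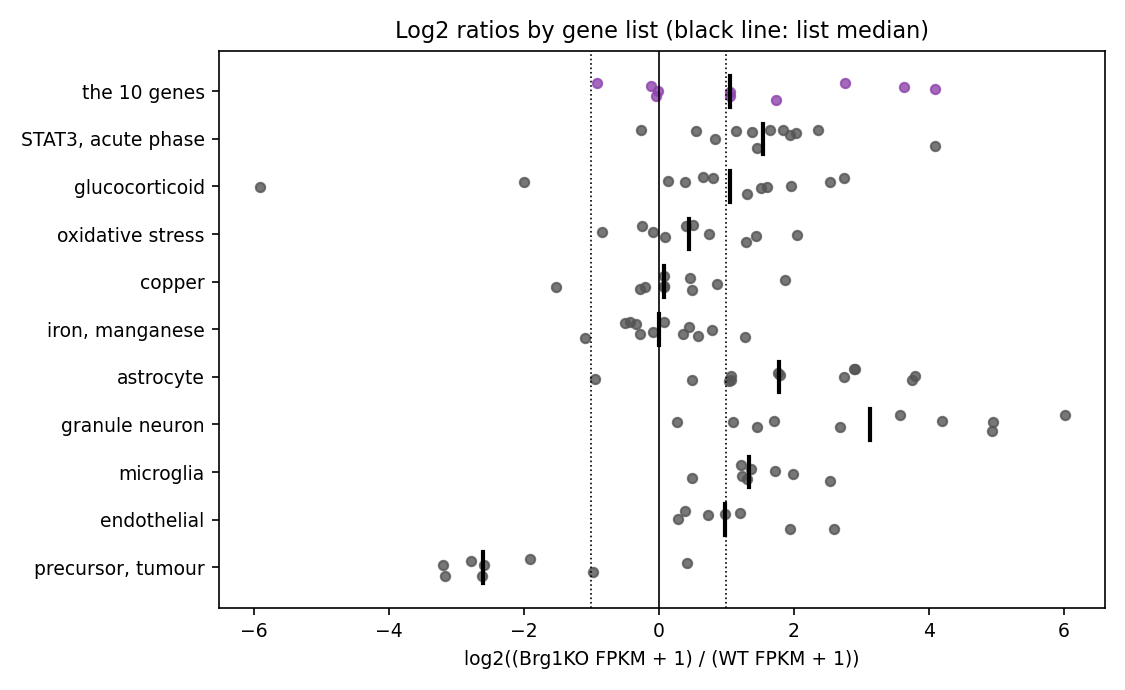
Log2 ratios (Brg1KO over WT, with 1 FPKM added) of the expressed genes of each list, 1 point per gene, with the list median as a black line and 2-fold as dotted lines. The 10 genes have a median of 1.05, the STAT3 and acute phase genes 1.55, the glucocorticoid genes 1.05, the astrocyte markers 1.78 and the precursor and tumour markers -2.60.

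**Figure D5:**
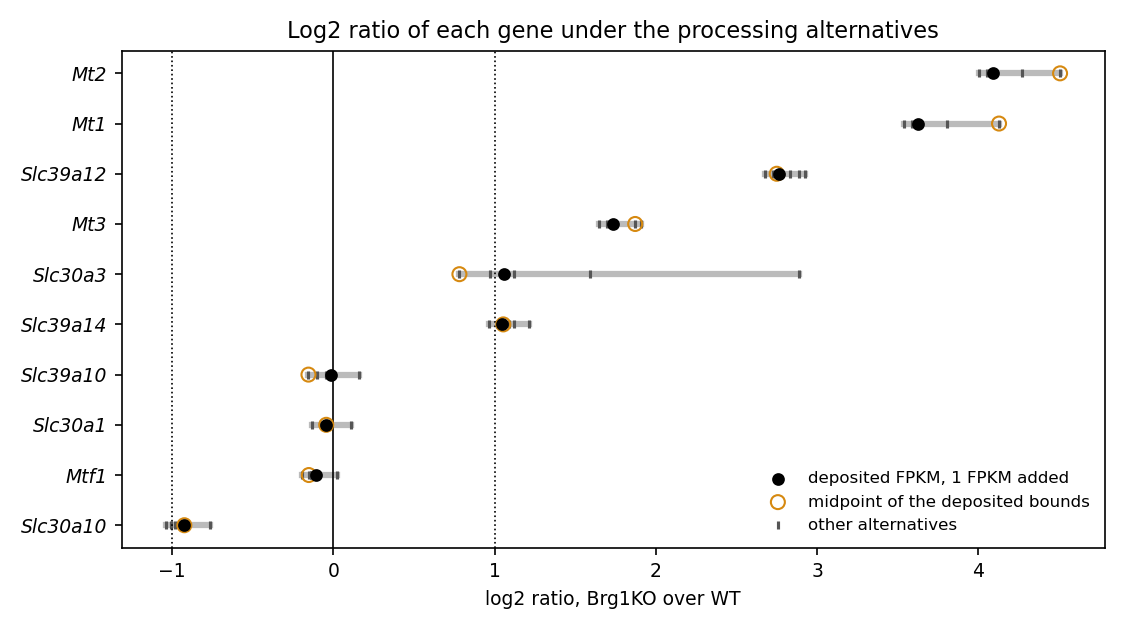
Log2 ratio of each of the 10 genes as reported (black), from the bound midpoints (open circle) and under the other alternatives (ticks), with 2-fold as dotted lines. Mt2, Mt1, Slc39a12 and Mt3 stay above 1 under all of them, while Slc30a3, Slc39a14 and Slc30a10 cross a 2-fold line.

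Mt2 ranged from 4.01 to 4.51 on the log2 scale under the alternatives in the plot of log2 ratios by setting, Mt1 from 3.54 to 4.13, Slc39a12 from 2.67 to 2.93 and Mt3 from 1.65 to 1.91. At a 4-fold rule, which called 4.17% of expressed records higher, 3 of the 10 genes were called higher, Mt1, Mt2 and Slc39a12. At a 1.5-fold rule, which called 28.1% higher and 18.0% lower, 6 of the 10 genes were called higher and 1 lower.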

How the data were processed

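For each library the authors deposited a table of gene records, each with an FPKM value, its 2 bounds and a status, per the file headers. According to the submitters' processing notes the tools and builds include Cuffdiff 2.1.1 and mm10, with no role stated. No source used here gives the aligner, the annotation or how the bounds were made. Record starts count from 0 in the files and from 1 here.

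Both tables were joined on record name and locus, which gave 23746 records. Log2 ratios are log2((Brg1KO FPKM + 1)/(WT FPKM + 1)), so ratios of low genes are understated. A record was called higher or lower at 2-fold, among 13279 records with at least 1 FPKM in 1 library. With 1 library per genotype no test was possible, so no p-value or SD is given.

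The 10 genes and the gene lists were chosen with earlier results of these data known. Named beside them are Smarca4, every other expressed Mt, Slc30a and Slc39a gene, the 4 most changed genes of each response and metal list among those past 2-fold (or its 2 most abundant genes), and the 2 records nearest in level to Mt1, Mt2 and Mt3. The same rule took genes from the cell type lists, which are given mainly as counts and sums, with few of those genes printed. Other names were chosen after their values were seen.

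Depth is known only in relative terms. In 1671 records the upper and lower bounds stood in a ratio of small whole numbers in both libraries (tolerance 1e-05). The implied step in WT was 1.23 times that in Brg1KO in 671 of them. If a step is 1 fragment, the Brg1KO library was deeper by this factor. Of 573 different stretches of 31 bases in Mt2 transcripts of GENCODE M21, 3 also occurred in transcripts of another gene, and none (0) of those of Mt1 or Mt3 did. Scripts ran on matplotlib 3.10.9, pandas 2.3.3, numpy 2.4.6 and Python 3.11.15.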

Additional observations from a re-analysis of the deposited data

How the results depend on the processing

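No paired analysis was possible because each genotype had 1 library. Of 88 log2 ratios of the 10 genes under alternatives, 80 kept their direction and their side of 2-fold, 3 fell inside 2-fold, 2 passed it and 3 near 0 changed sign. Those that fell inside were Slc30a3 with 0.97 after centring on the median and 0.78 from the bound midpoints, and Slc39a14 with 0.96 after centring. The median log2 ratio of the 10 genes was 0.97 after centring and 0.92 from the bound midpoints. The number of the 10 genes called higher was 3 with a 4-fold rule, and so was that of the whole families (3). After centring this number fell from 6 to 4, for the 10 genes and for the whole families alike. It was 5 for both from the bound midpoints, and 5 with at least 5 FPKM required in 1 library. The number of the 10 genes called lower was 1 with a 1.5-fold rule, after centring and with 0.1 FPKM added. In the whole families the lower genes numbered 2 under these same 3 settings, and 0 with a 4-fold rule or the same FPKM sum. The other alternatives in the set moved none of these counts by more than 1.5 times. Slc30a3 had the widest range of the 10 genes, from 0.78 to 2.89. The absolute depth is unknown.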

Other observations

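Genes that handle other metals were read from lists of their own. The 2-fold rule called 16.1% of all expressed records higher and 8.67% lower, so nothing is read from the counts of these lists. Of 10 copper genes, 1 was at least 2-fold higher and 1 lower (median log2 ratio 0.08). Cp, which encodes ceruloplasmin, a copper-binding ferroxidase that astrocytes make, had 59.3 FPKM in Brg1KO and 15.5 FPKM in WT. Commd1, whose protein takes part in copper transport, had 22.3 FPKM in Brg1KO and 65.6 FPKM in WT. The copper importer gene Slc31a1 had 30.3 FPKM in Brg1KO and 28.5 FPKM in WT, and the copper chaperone gene Atox1 had 86.6 FPKM in Brg1KO and 82.3 FPKM in WT.

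Of 12 iron and manganese genes, 1 was at least 2-fold higher and 1 lower (median -0.001). Fth1, the heavy chain of the iron store ferritin, had 1212 FPKM in Brg1KO and 498 FPKM in WT, while the light chain gene Ftl1 had 518 FPKM in Brg1KO and 733 FPKM in WT. Slc40a1, the iron exporter gene, had 2.85 FPKM in Brg1KO and 7.18 FPKM in WT.

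Markers of Purkinje cells were at least 2-fold higher in 6 of 7 cases (median 5.23), of interneurons in 6 of 6 (median 3.69) and of oligodendrocytes in 7 of 7 (median 3.35). Markers of the choroid plexus and ependyma were within 2-fold in all 7 cases (median 0.06), with Ttr at 1070 FPKM in Brg1KO and 997 FPKM in WT.

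Among 10804 named records of at least 1 FPKM in both libraries, the 10 genes left out, those nearest to Mt3 in level were Serinc1, with 395 FPKM in Brg1KO and 118 FPKM in WT, and Atp1b2, with 409 FPKM in Brg1KO and 163 FPKM in WT. Their distances were 0.291 and 0.303 on the log2 scale over the 2 libraries. For Mt1 and Mt2 no record outside the 10 genes was that close. Cst3, with 1987 FPKM in Brg1KO and 494 FPKM in WT, and Snord69, a short RNA record with 1771 FPKM in Brg1KO and 438 FPKM in WT, were nearest to both, at distances of 1.14 to 1.51.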
